A study of Mus musculus with 2 samples.

Results

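Cullin-RING ubiquitin ligase subunits and the subunits of the COP9 signalosome were examined in mouse testes with and without the ubiquitin ligase UBR2. The genes were chosen by symbol alone: cullins (Cul), RING subunits (Rbx), SKP proteins (Skp1 and Skp2), F-box proteins (Fbxl, Fbxo, Fbxw and Btrc), kelch-like proteins (Klhl) and signalosome subunits (Cops), read by probe sets with a single gene symbol. The rule took 112 of 22626 probe sets, which stand for 71 of 12393 genes. Another 4 probe sets, assigned to both Rbx1 and its pseudogene, carried several symbols and were left out, so Rbx1 is not described. The other RING subunit, RBX2, is encoded by Rnf7, which the symbol rule does not take and whose values stand with the NEDD8 pathway genes.

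Both groups were testes of 17 day old mice of a mixed 129SV and C57BL strain, when the leading germ cells are in the pachytene stage of meiosis. One group was wild type and the other UBR2-/-, without UBR2, a ligase of the N-end rule pathway needed for male meiosis. Each genotype had 1 oligonucleotide array (n = 1), for which 2 testes from different littermates are named, with their pooling and the kind of UBR2 allele not given in the sources used here. With 1 array per genotype there is no replicate check, no test and no p-value, and each difference describes these 2 arrays. Values are signals on the authors' scale, and ratios are UBR2-/- over wild type on the log2 scale. The brightest probe set stood for its gene. Signals under a floor, the 40th percentile (24.4 in wild type, 24.7 in UBR2-/-), were raised to it. The error of 1 probe set was estimated from genes with 2 probe sets, as an SD of the log2 ratio of 0.27 where they were dim, 0.20 at middle brightness and 0.15 where bright. This SD leaves out error between arrays and between animals. Ubr2 itself gave signals of 57.2 and 14.3, the second below the floor, a difference of at least 2.32-fold in the labelled direction. It has 1 probe set, with its place relative to the changed stretch of Ubr2 not given in the sources used here.

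Cullin-RING ligases attach ubiquitin to proteins that a receptor subunit selects. A cullin forms the scaffold, a RING protein at one end brings the ubiquitin-loaded enzyme, and an adaptor at the other end holds the receptor: SKP1 with an F-box protein on CUL1, or a BTB protein such as a kelch-like protein directly on CUL3. The small protein NEDD8 switches cullins on, and the COP9 signalosome takes it off again. In the testis these ligases are known for roles in the meiotic cell cycle and in spermatid maturation, with SKP1 and CUL4A needed for male meiosis in mice and KLHL10 for spermatids.

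Messenger RNA of these ligases was much alike on both arrays. Of the 71 genes, 63 reached the floor on average over both arrays and were compared. Of these 63, 58 lay within 1.5-fold (92.1%), against a background of 88.0% of all 8091 compared genes. Fbxw5 and Fbxo15 were at least 2-fold lower and 0 genes were at least 2-fold higher. The 2 lower genes of 63 stand beside a background of 3.52% of all compared genes at least 2-fold lower, and the 0 higher genes beside 0.346%. At 1.5-fold the counts were 3 lower and 2 higher, with Fbxo36 added to the lower side and Cul7 and Fbxo28 on the higher side. The background at that threshold was 7.71% lower and 4.25% higher. The share of members past either threshold was thus near that of all genes. The median log2 ratio was -0.03 for the 63 genes and 0.07 for all compared genes, and the interquartile range was 0.47 and 0.44. The median of the 63 genes was 0.005 with the mean over probe sets, so its sign depends on that choice.

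**Figure D1:**
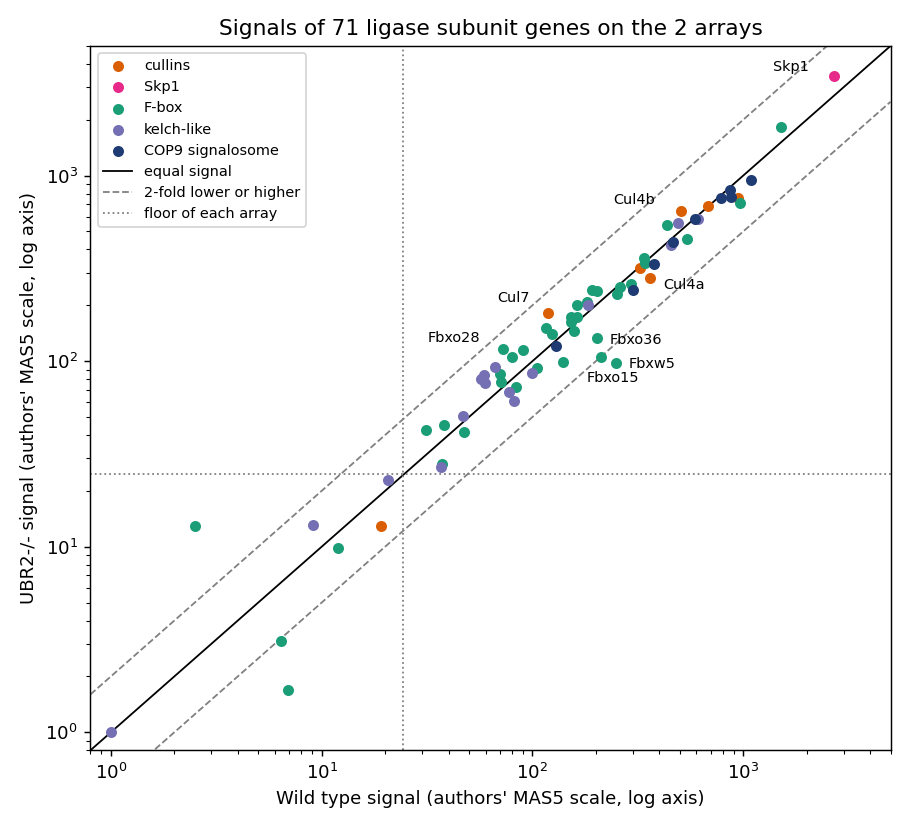
Signals of the 71 genes on the wild type (x axis) and UBR2-/- (y axis) array, both log axes, 1 point per gene by its brightest probe set and colored by role. The 63 compared genes follow the line of equal signal and Fbxw5 and Fbxo15 lie past the lower 2-fold line, while 8 genes lie below the dotted floors.

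Scaling to the spike-in controls, bacterial and phage transcripts read by 42 probe sets, in place of the authors' scaling lowers every log2 ratio by 0.35. Log2 ratios between 0 and 0.35 therefore change sign under that scaling, while the median of all compared genes moves from 0.07 to -0.28, so that distances from it stay nearly as they were. Of the 63 compared genes 34 lay below and 29 above that median.

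The cullin scaffolds lay on both sides of 0, and none was 2-fold off. With Skp1, 7 of these 8 genes were compared, with a median log2 ratio of 0.00 that becomes -0.35 with spike-in scaling. Cul1, the scaffold of the SKP1 and F-box ligases, gave signals of 684.6 in wild type and 686.2 in UBR2-/- testis (log2 ratio 0.00). Cul2, which works with the elongins and the VHL protein, had 323.3 and 316.1 (log2 ratio -0.03), and its dimmer probe set had -0.27. Both values lie close to the spread of probe sets. Cul3, the scaffold for kelch-like and other BTB proteins, gave signals of 949.1 and 753.7, a 1.26-fold lower value in UBR2-/- (log2 ratio -0.33). Its 3 probe sets ranged from -0.34 to -0.17 and all lay below 0. Cul7, which assembles with the F-box protein FBXW8, gave signals of 118.1 and 181.3, a 1.54-fold higher value in UBR2-/- (log2 ratio 0.62), 0.54 above the median of all compared genes. It was read by 1 probe set and remained above 0, at 0.27, with spike-in scaling. Fbxw8, its partner, gave signals of 161.9 and 172.5 (log2 ratio 0.09). Cul9, a p53-binding cullin, was below the floor on both arrays, at 19.2 and 12.9.

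The CUL4 paralogs, which both use DDB1 as their adaptor, lay apart. Cul4a, on chromosome 8, gave signals of 361.9 in wild type and 281.8 in UBR2-/- testis, a 1.28-fold lower value in UBR2-/- (log2 ratio -0.36). Cul4b, on the X chromosome, had 509.7 and 644.6, a 1.26-fold higher value in UBR2-/- (log2 ratio 0.34), with 0.54 in its other probe set. Cul4a was read by 1 probe set. The gap of 0.70 between their log2 ratios ranged from 0.68 to 0.80 over 9 alternatives. A common scaling cancels in this gap and the other floors left both ratios unchanged, so the range was narrow largely by construction. It does not cover error between arrays or between animals. With spike-in scaling Cul4a had -0.71 and Cul4b turned to -0.01. This pair, and the other pairs of relatives described here, were picked after their values were seen. The promoters of both genes are shown because the pair differs in its ratios. Sequences here run from 250 bases before to 50 bases after the annotated start, from RefSeq on build GRCm38.p6, 5′ to 3′ on the gene's strand. Capitals mark the shared letters of the cAMP response element (TGACG, or CGTCA on the other strand) and the core of the MYB motif (AACTG or AACGG, or CAGTT or CCGTT on the other strand). The Cul4a promoter lies at chr8:13105373-13105672 on the plus strand and the Cul4b promoter at chrX:38576147-38576446 on the minus strand.
Cul4a: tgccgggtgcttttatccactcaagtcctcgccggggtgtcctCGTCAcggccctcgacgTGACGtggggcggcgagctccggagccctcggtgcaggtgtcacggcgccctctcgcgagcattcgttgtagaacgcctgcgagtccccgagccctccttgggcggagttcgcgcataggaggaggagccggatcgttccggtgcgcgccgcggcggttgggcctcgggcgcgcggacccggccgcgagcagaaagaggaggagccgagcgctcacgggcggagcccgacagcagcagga
Cul4b: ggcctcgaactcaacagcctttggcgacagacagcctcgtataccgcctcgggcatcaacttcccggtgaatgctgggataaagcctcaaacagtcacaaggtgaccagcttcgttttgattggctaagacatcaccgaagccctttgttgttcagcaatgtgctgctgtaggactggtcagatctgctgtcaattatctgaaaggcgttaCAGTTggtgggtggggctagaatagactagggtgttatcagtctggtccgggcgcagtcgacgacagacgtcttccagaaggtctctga
The Cul4a promoter has 71% G and C and 43 CG pairs, with 2 cAMP element motifs and 0 MYB cores. The Cul4b promoter has 52.3% G and C and 14 CG pairs, with 0 cAMP element motifs and 1 MYB core. These matches describe letters in this window and no binding was measured.

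Skp1, the adaptor that joins CUL1 to F-box proteins, gave signals of 2699.3 in wild type and 3444.7 in UBR2-/- testis, a 1.28-fold higher value in UBR2-/- (log2 ratio 0.35). Its other probe set had 1131.1 and 1118.6 (log2 ratio -0.02). The probe sets thus differed by 0.37, and the brighter one had -0.00 with spike-in scaling, so they do not give 1 direction.

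F-box proteins, the receptors of the CUL1 ligases, made up 38 of the 71 genes, and 34 of them reached the floor. Fbxw5 and Fbxo15 lay past 2-fold and the other 32 did not, with a median log2 ratio of 0.10 that turns to -0.25 with spike-in scaling. Fbxw5, a WD40-repeat F-box protein that in human cells limits centriole duplication by targeting SAS-6, was farthest below 0. Its signals were 248.5 in wild type and 98.1 in UBR2-/- testis, a 2.53-fold lower value (log2 ratio -1.34), and 2.09% of all compared genes lay at or below it. It was read by 1 probe set and ranged from -1.69 to -1.26 over the alternatives. Fbxo15, an F-box gene known as a target of OCT4 in mouse embryonic stem cells, had 211.6 and 105.1, a 2.01-fold lower value in UBR2-/- (log2 ratio -1.01). It was read by 1 probe set and lay just past 2-fold, and without a floor and with a pseudocount of 10 its log2 ratio was -0.95. Fbxo36 was the next below, with 203.4 and 132.7 by its brightest probe set (1.53-fold lower, log2 ratio -0.62) and 184.3 and 91.9 by the other (log2 ratio -1.004). Both its probe sets were lower on the UBR2-/- array, and which of them is used decides whether it reaches 2-fold.

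Late spermatocyte markers were also lower on the UBR2-/- array, and their values are set beside these genes. Of 18 compared markers of late spermatocytes 15 were at least 2-fold lower and 0 higher, with a median log2 ratio of -2.39, and their summed signal was 13631 in wild type and 2817 in UBR2-/- testis. Adam5, a sperm surface gene, had 681.8 and 28.8 (log2 ratio -4.57), and Ldhc, a germ cell lactate dehydrogenase, had 3709.3 and 430.5 (log2 ratio -3.11). None of the 18 had a signal of 0, but Pgk2, Adam3 and Ccna1 were under the floor on the UBR2-/- array. Their differences are therefore bounds, of at least 4.35-fold, 10.8-fold and 2.11-fold, and the median rests in part on such a bound. In bulk tissue fewer cells of a type and less RNA per cell cannot be told apart, and the part of the late spermatocytes in the ratios of Fbxw5, Fbxo15 and Fbxo36 was not tested. The log2 ratios of that list ranged from -4.57 to -0.85, beside -1.34 for Fbxw5, -1.01 for Fbxo15 and -0.62 for Fbxo36.

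The promoters of Fbxw5 and Fbxo36 are shown as those of low members, with the same capitals. That of Fbxo15, which lay lower than Fbxo36, is not shown. The Fbxw5 promoter lies at chr2:25500500-25500799 and the Fbxo36 promoter at chr1:84839591-84839890, both on the plus strand.
Fbxw5: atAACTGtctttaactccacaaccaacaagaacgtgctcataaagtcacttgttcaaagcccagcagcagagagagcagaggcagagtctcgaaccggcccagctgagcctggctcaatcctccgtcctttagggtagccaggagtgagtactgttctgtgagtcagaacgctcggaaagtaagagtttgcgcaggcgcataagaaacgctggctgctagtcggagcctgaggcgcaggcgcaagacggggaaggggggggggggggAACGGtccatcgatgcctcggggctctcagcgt
Fbxo36: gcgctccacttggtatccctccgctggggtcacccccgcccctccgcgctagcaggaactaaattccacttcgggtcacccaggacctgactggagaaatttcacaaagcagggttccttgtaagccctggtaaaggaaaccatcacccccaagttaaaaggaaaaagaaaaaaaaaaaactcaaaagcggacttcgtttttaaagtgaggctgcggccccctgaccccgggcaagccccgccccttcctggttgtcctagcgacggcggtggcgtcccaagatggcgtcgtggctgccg
The Fbxw5 promoter holds 2 MYB cores and the Fbxo36 promoter 0, and neither holds the cAMP element motif. Over the group, RefSeq promoters were matched for 54 of the 71 genes, 76 promoters in all. The cAMP element motif was in 39.5% of them and in 20.8% of all 32851 promoters of this length, and the MYB core was in 47.4% and 55.1%. The cAMP element motif holds a CG pair, and the median number of CG pairs was 20 in the members' promoters and 7 in all promoters. The part of this base composition in the shares was not tested.

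The other WD40-repeat F-box genes were nearer 0. Btrc and Fbxw11 encode the beta-TrCP proteins, which share substrates such as beta-catenin. Btrc gave signals of 140.4 and 98.4, a 1.43-fold lower value in UBR2-/- (log2 ratio -0.51), and its other probe set was below the floor on both arrays. Fbxw11 had 1503.9 and 1820.3, a 1.21-fold higher value in UBR2-/- (log2 ratio 0.28), with 3 probe sets from -0.12 to 0.35. The gap between these relatives was 0.79 and ranged from 0.42 to 0.79 over the 8 alternatives that gave both genes. Fbxw7, the receptor for cyclin E, MYC and NOTCH, had 252.8 and 231.3 (log2 ratio -0.13), with -0.10 in its other probe set. Fbxw2 had a log2 ratio of 0.24, but its 5 probe sets above the floor ranged from -0.26 to 0.31 and do not give 1 direction. Fbxw4 and Fbxw9 had 0.13 and 0.10, and Fbxw14 was below the floor. Of the 8 compared WD40-repeat genes 3 lay below and 5 above 0, with a median of 0.10, beside 41.0% of all compared genes below 0.

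The 6 compared leucine-rich repeat F-box genes all lay within 1.5-fold, beside 88.0% of all compared genes. Skp2, the receptor for the cell cycle inhibitor p27, gave signals of 162.3 in wild type and 200.4 in UBR2-/- testis, a 1.23-fold higher value in UBR2-/- (log2 ratio 0.30). Its 5 probe sets above the floor ranged from 0.16 to 0.60 and all lay above both 0 and the median of all compared genes. With spike-in scaling its brightest probe set had -0.05. Fbxl20, a receptor for a protein of the synapse, had 192.5 and 242.7 (log2 ratio 0.33, or -0.02 with spike-in scaling). Fbxl6 had 79.7 and 104.7 (log2 ratio 0.39). The other members lay below 0, with -0.11 for Fbxl12, -0.18 for Fbxl14, a receptor for the transcription factor SNAI1, and -0.18 for Fbxl15. Fbxl8 was below the floor.

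Among F-box genes with other domains, 20 of 22 were compared and the median was 0.13. Of these 20 genes 9 lay below and 11 above 0, beside 41.0% of all compared genes below 0. Fbxo28 lay farthest above 0 of all 63 genes, with signals of 72.8 in wild type and 116.2 in UBR2-/- testis (1.60-fold higher, log2 ratio 0.67), and 97.6% of all compared genes lay at or below it. It was read by 1 probe set and had 0.32 with spike-in scaling. Fbxo32, a muscle atrophy gene also called atrogin-1, was dim at 31.2 and 42.8 (log2 ratio 0.46). Fbxo17 had 116.2 and 151.2 (log2 ratio 0.38), and Fbxo6, which binds glycoproteins leaving the endoplasmic reticulum, had 90.1 and 114.4 (log2 ratio 0.34). Fbxo21 had 433.6 and 541.7, with 0.32 and 0.31 in its 2 probe sets. These values all lie above the median of all compared genes, and the ratios of Fbxo6 and Fbxo21 turn to -0.01 and -0.03 with spike-in scaling. On the lower side, Fbxo3 had 970.1 and 716.2, a 1.35-fold lower value in UBR2-/- (log2 ratio -0.44), and its 3 probe sets above the floor ranged from -0.44 to -0.02. Fbxo42, a receptor for p53, was dim at 37.2 and 27.8 (log2 ratio -0.42). Fbxo9 had 541.5 and 458.3, with -0.24 and -0.26 in its 2 probe sets, so both lay on the same side. Fbxo4 had 83.9 and 73 (log2 ratio -0.20). Fbxo22 and Fbxo45 had probe sets on both sides of 0, from -0.18 to 0.09 and from -0.08 to 0.18. The 7 other compared genes of this class ranged from -0.18 for Fbxo11 to 0.28 for Fbxo31, and Fbxo2 and Fbxo43 were below the floor. FBXO43, also called EMI2, is known as a meiotic inhibitor of the anaphase-promoting complex, and its gene gave signals of 6.9 and 1.7, under the floor on both arrays.

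**Figure D2:**
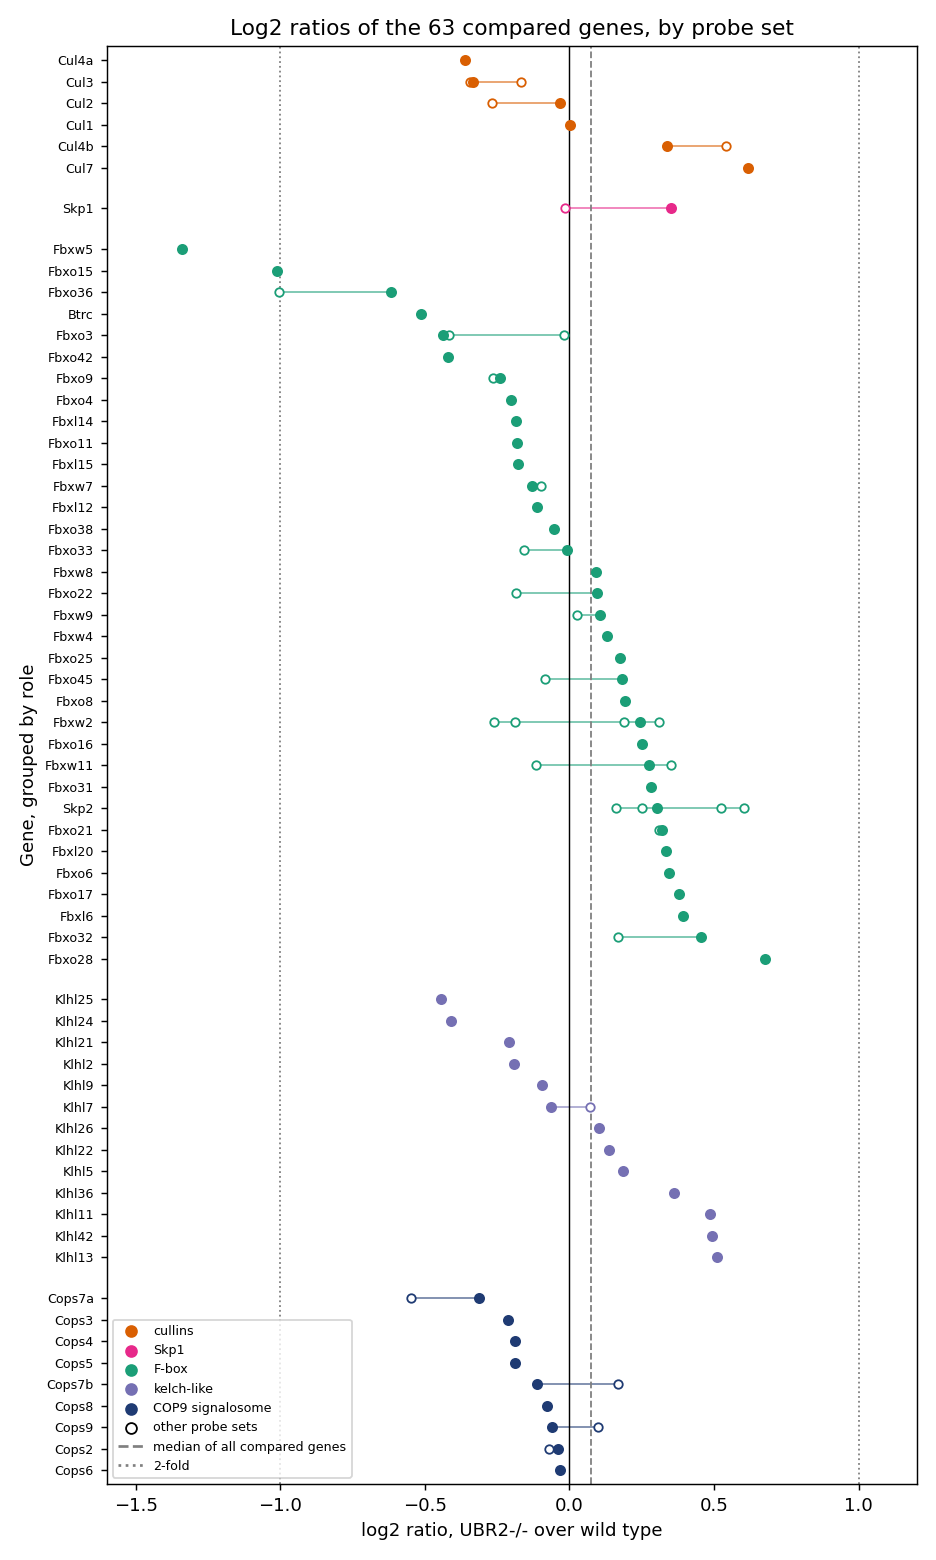
Log2 ratios (x axis) of the 63 compared genes (y axis, grouped by role), with the brightest probe set filled and the others above the floor open. The 9 filled points of the COP9 genes lie left of 0, while cullins, F-box and kelch-like genes lie on both sides.

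Kelch-like genes, the BTB receptors of CUL3, were within 1.5-fold in all 13 of 13 compared cases, beside 88.0% of all compared genes. Of the 13, 6 lay below and 7 above 0, beside 41.0% of all compared genes below 0. The median log2 ratio of the kelch-like genes was 0.10, which turns to -0.25 with spike-in scaling. Klhl13, an X-linked gene, gave signals of 59.0 in wild type and 84.0 in UBR2-/- testis, a 1.42-fold higher value in UBR2-/- (log2 ratio 0.51). Its other probe set was below the floor on both arrays, and the mean over probe sets gave 0.26. Klhl9, which works with KLHL13 on Aurora B in dividing human cells, had 453.9 and 425.4 (log2 ratio -0.09). The gap between them was 0.60 and ranged from 0.36 to 0.60 over the 7 alternatives that gave both. Klhl21, which also acts on Aurora B in human cells, had 100 and 86.6 (log2 ratio -0.21). The ratios of these 3 genes lay on both sides of 0. That of Klhl9 was smaller than the SD of 0.15 for bright probe sets, so no common or opposite direction is drawn from them.

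Klhl42 and Klhl11 were next to Klhl13 at the high end. Klhl42, whose product targets the microtubule-severing protein katanin in human cells, gave signals of 56.8 and 80.0 (log2 ratio 0.49). Klhl11, known as a target of autoantibodies in men with testicular tumours, had 66.6 and 93.2 (log2 ratio 0.48). Klhl36 had 59.3 and 76.2 (log2 ratio 0.36). These were read by 1 probe set each and stayed above 0 with spike-in scaling, at 0.14, 0.13 and 0.01. At the low end, Klhl25, a receptor for the translation repressor 4E-BP1 in human cells, was dim at 36.7 and 27.0 (log2 ratio -0.44), Klhl24, whose product targets a keratin of the skin, had 81.4 and 61.3 (log2 ratio -0.41) and Klhl2 had 77.6 and 67.9 (log2 ratio -0.19). Klhl7 had 612.3 and 586.3, with -0.06 and 0.07 in its 2 probe sets. Klhl5, Klhl22 and Klhl26 had 0.19, 0.14 and 0.10. The median of these genes turned to -0.06 with a higher floor, at the 60th percentile, and without probe sets that can bind several transcripts, settings that leave fewer genes.

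Genes below the floor give no ratio. Klhl10, the kelch-like gene of spermatids whose loss makes male mice infertile, gave signals of 9.1 in wild type and 13.1 in UBR2-/- testis. Klhl1 had 1.0 on both and Klhl20 had 20.7 and 22.9. Klhl20 lay just under the mean floor and Klhl25 was the dimmest kelch-like gene above it. The spermatid markers were likewise mostly dim, with 10 of 11 found under the mean floor and Prm1 at 35.3 and 94.0.

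The X-linked members were Cul4b and Klhl13, with a median log2 ratio of 0.42. The median of all 274 compared X-linked genes was 0.35. Of the 61 compared members on other chromosomes, 10 lay above Cul4b, so the X-linked members were high but not apart from the rest.

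The subunits of the COP9 signalosome lay together, slightly below 0. All 9 of 9 had a log2 ratio below 0 by their brightest probe set, against 41.0% of all compared genes and 41.5% of the 5012 genes at least as bright as the dimmest of them. Their ratios ranged from -0.31 to -0.03 with a median of -0.11, and all 9 lay below the median of all compared genes, as 50% of these genes do. Of other lists, 8 of 9 NEDD8 pathway, 11 of 12 early meiotic and 18 of 18 late spermatocyte genes also lay below that median. So did 5 of 6 macrophage or leukocyte, 3 of 5 endothelial and 4 of 7 spermatogonial markers. Of CUL4 adaptors 12 of 18 did, and of CUL2 and CUL5 adaptors 11 of 21. Of the anaphase-promoting complex 7 of 15 did, and of CUL3 BTB adaptors under other names 5 of 14. Of Leydig, Sertoli and myoid markers 2 of 5, 2 of 10 and 0 of 6 did. Each single COP9 ratio is small, and the count of COP9 genes below 0 was chosen as a description after the values were seen.

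Cops5, the subunit that cuts NEDD8 from cullins, gave signals of 875.0 in wild type and 767.9 in UBR2-/- testis (log2 ratio -0.19). Cops6, its partner in the catalytic pair, had 593.4 and 580.6 (log2 ratio -0.03). Cops7a and Cops7b encode alternative forms of the same subunit. Cops7a had 300.1 and 241.9 and was the lowest of the 9 (1.24-fold lower, log2 ratio -0.31), with -0.55 in its other probe set, while Cops7b had 130 and 120.2 (log2 ratio -0.11), with 0.17 in its dim second probe set. Both probe sets of Cops7a thus lay below 0, and those of Cops7b did not agree in sign. Of the scaffold subunits, Cops3 had 1092.1 and 942.1 (log2 ratio -0.21), Cops4 had 379.3 and 332.6 (log2 ratio -0.19), Cops2 had 783.0 and 761.2 (log2 ratio -0.04) and Cops8 had 463.9 and 439.8 (log2 ratio -0.08). Cops9, the small last subunit, had 867.5 and 832.6 (log2 ratio -0.06), with 0.10 in its other probe set above the floor. Gps1, the gene of subunit 1, which the symbol rule does not take and which was looked up after the others were seen, had 822.0 and 751.2 (log2 ratio -0.13).

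The 9 genes were below 0 in 6 alternatives that kept all of them, the brightest probe set and a scaling near that of the authors. In these, 41.0% to 48.8% of all compared genes were below 0, the highest share with loess. The other floors left the COP9 ratios unchanged, a pseudocount cannot change a sign, and array median scaling hardly moved them. The count under these 6 alternatives was therefore largely fixed by construction. With spike-in scaling, which lowers every ratio, the 9 genes had to be below 0, as 82.9% of all compared genes were. Without probe sets that can bind several transcripts, 8 of 8 COP9 genes were below 0, beside 41.1% of all compared genes. With the mean over probe sets 6 of 9 lay below 0 and 8 of 9 below the median of all compared genes, with Cops6 at 0.24, where a second probe set with 22.6 in wild type and 34.7 in UBR2-/- testis counts as much as the brighter one. The median of the COP9 genes lay 0.13 to 0.22 below that of all compared genes over the reported setting and 9 alternatives. The corresponding distance from the median of all compared genes ran from -0.01 to 0.04 for F-box genes, from -0.13 to 0.06 for kelch-like genes and from -0.20 to -0.05 for cullins with Skp1.

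**Figure D3:**
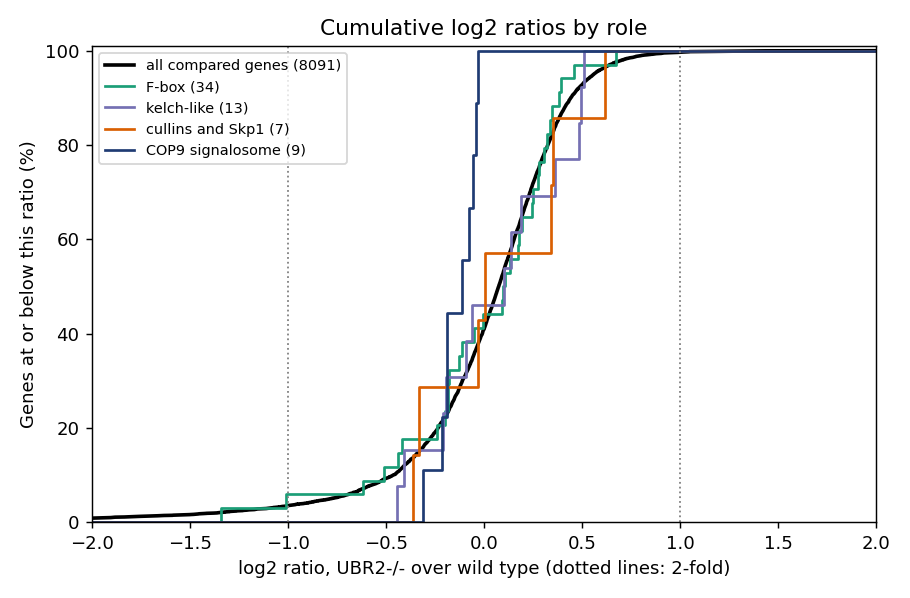
Share of genes (y axis, percent) at or below each log2 ratio (x axis) for all 8091 compared genes and for the role groups. The curves of F-box and kelch-like genes run along that of all genes, and the COP9 curve of 9 genes reaches 100% left of 0.

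**Figure D4:**
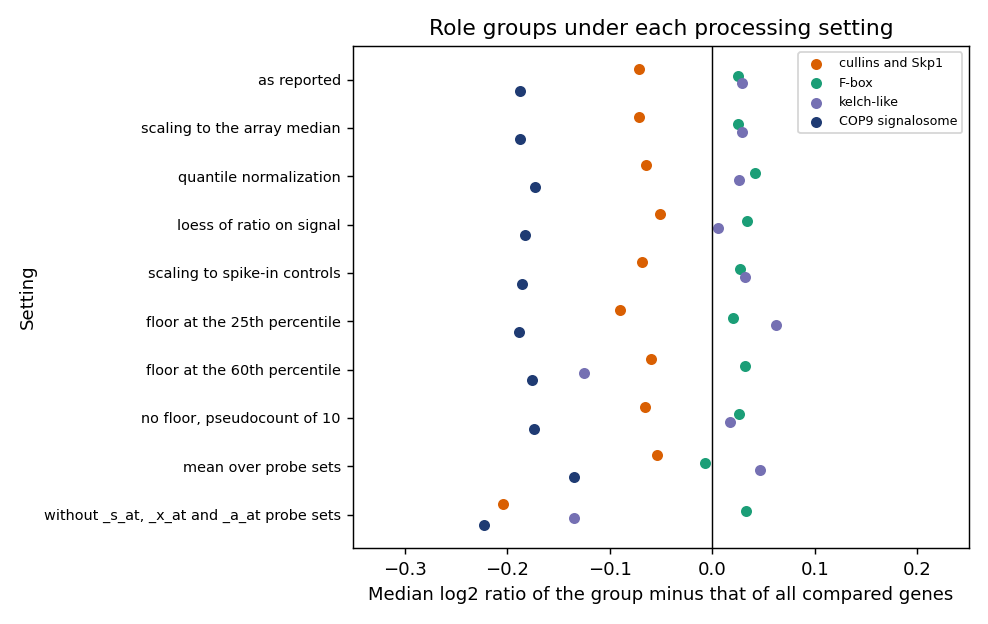
Median log2 ratio of each role group minus that of all compared genes (x axis) as reported and under 9 alternatives (y axis). The COP9 points lie between -0.22 and -0.13, and those of kelch-like genes fall on both sides of 0.

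Other genes of the same ligase system, named differently from the members, were also mostly within 2-fold. Of all compared genes 3.52% were at least 2-fold lower, 0.346% at least 2-fold higher and 88.0% within 1.5-fold. In the NEDD8 pathway 0 of 9 compared genes were 2-fold off, 8 lay below and 1 above the median of all compared genes, and the list's median was -0.02. Nae1, a subunit of the enzyme that activates NEDD8, gave signals of 1857.2 in wild type and 1213.6 in UBR2-/- testis (log2 ratio -0.61), and Uba3, its partner subunit, had 704.9 and 627.3 (log2 ratio -0.17). Glmn, which binds RBX1 and blocks it, had 135.1 and 94.5 (log2 ratio -0.52), and Nedd8 itself had 801.9 and 807.8 (log2 ratio 0.01). Rnf7, the RING subunit that pairs with CUL5, was singled out after its values were seen and had 856.7 and 832.2 (log2 ratio -0.04). Adaptors and receptors of CUL4 were within 1.5-fold in 18 of 18 compared genes, with a median of -0.07, Ddb1 and Ddb2 at 0.10 and 0.04, and Dcaf15, Dtl and Phip farthest from 0 at -0.55, -0.42 and 0.50. Among CUL2 and CUL5 adaptors 1 of 21 compared genes was at least 2-fold lower and 0 higher, with a median of 0.00. That gene was Spsb2, at 73.4 and 33.4 (log2 ratio -1.14), while the elongin genes Eloc and Elob had -0.03 and -0.13 and Socs6 and Spsb1 had 0.64 and 0.60. BTB adaptors of CUL3 under other names were all between the 2-fold limits in 14 of 14 cases, with a median of 0.15, Btbd3, Enc1 and Kctd5 at 0.50, 0.38 and 0.31, and Keap1, which targets NRF2, at -0.03. The anaphase-promoting complex, a ligase with a cullin-like subunit, had 0 of 15 genes 2-fold off and a median of 0.09, with its cullin-like subunit gene Anapc2 at 0.44, its scaffold gene Anapc1 at 0.25 and Cdc23 and Ube2c both at 0.51. Of F-box genes under other names Ccnf had 0.33 and Kdm2b -0.03.

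**Figure D5:**
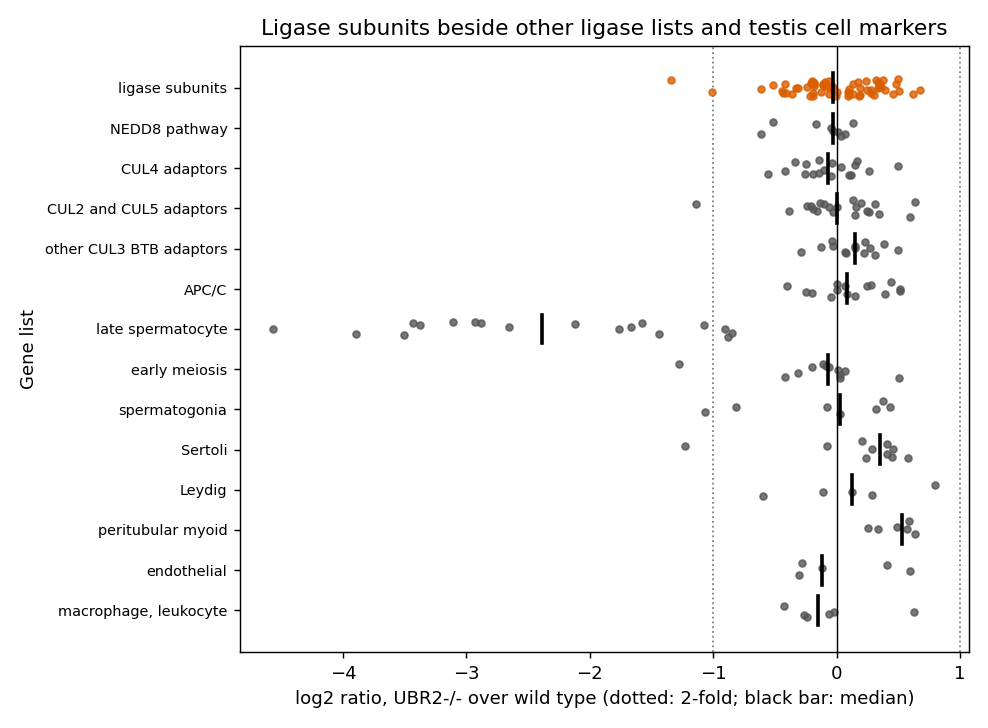
Log2 ratios (x axis) of the 63 ligase subunit genes, of other ligase lists and of testis cell markers (y axis, 1 point per compared gene, black bar at the median). The late spermatocyte markers reach from -4.57 to -0.85, while nearly all ligase genes lie within the 2-fold lines.

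Cell markers were set beside these values. Of the somatic markers of the testis, 10 of 10 Sertoli, 5 of 5 Leydig and 6 of 6 myoid genes reached the floor. Early meiotic genes had 12 compared members, 1 at least 2-fold lower (Spo11, which starts meiotic recombination, at 555.7 and 229.8) and 11 between, a median of -0.07 and summed signals of 13688 in wild type and 13156 in UBR2-/- testis. Sertoli markers had a median of 0.35 over 10 genes, with Amh at least 2-fold lower (59.7 and 25.5). Their summed signals were 8917 and 11516, of which Clu alone gave 5186.1 and 7075.9. Peritubular myoid markers had a median of 0.53 over 6 genes and summed signals of 2543 and 3650. Spike-in scaling lowers the ratios of all these markers by 0.35 as well. Spermatogonia, Leydig, endothelial and macrophage or leukocyte markers had medians of 0.02, 0.12, -0.12 and -0.15 over 7, 5, 5 and 6 compared genes, with Id4 among the spermatogonial genes at least 2-fold lower (778.8 and 371.3). Their summed signals were 2166 and 1897, 994 and 1014, 149 and 162, and 594 and 548, in that order and wild type first. Their part in the small ratios of the ligase genes, including Cul4b, Cul7, Skp2 and the COP9 genes, was not tested.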

How the data were processed

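The authors deposited 1 table of linear probe set intensities (signals) for 2 arrays. They used MAS5, per the submitters' processing notes, with version, settings and presence calls not given in the sources used here. Both columns had a 2% trimmed mean of 150.04, so the deposited scaling was kept. Of 22626 probe sets that are no controls, 20380 had 1 symbol in the platform annotation and were used. The GRCm38.p6 gene table gave the chromosome of all 71 members and older names of listed genes. The 8091 genes whose 2 signals averaged at least the average of the 2 floors were compared. The number of arrays limits the precision. No test was possible.

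The members, gene lists, motifs, shown sequences and alternatives were chosen with earlier results of these data known. Named were all cullin, SKP and COP9 genes, genes 2-fold off, the 12 highest and 12 lowest F-box and kelch-like genes, genes whose probe sets disagreed, X-linked genes and the members nearest the floor. Also by rule, the 3 brightest and 3 dimmest members, and of each other list the 3 genes farthest from 0 and the first 2, of which the cell marker lists are given in part. Remaining members complete a group. Alternatives were array median, quantile, loess (span 0.3) and spike-in scaling, floors at the 25th and 60th percentiles, a pseudocount of 10, averaging a gene's probe sets, dropping probe sets ending in _s_at, _x_at or _a_at, and thresholds of 1.5-fold and 3-fold. The calculation was tested on simulated data. Python 3.11.15, pandas 2.3.3 and statsmodels 0.14.6 were used.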

Additional observations from a re-analysis of the deposited data

How the results depend on the processing

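Spike-in scaling moved the median log2 ratio from -0.03 to -0.38 for all ligase subunit genes, to -0.35 for cullins with Skp1, to -0.25 for F-box genes, to -0.25 for kelch-like genes and to -0.47 for COP9 genes, by its construction a shift of every gene. The other 8 alternatives moved these medians by less than 0.21, the error (SD) of a single probe set over all genes with 2 of them. The medians were themselves smaller than that SD, so this does not show that they are stable. Some changed sign. The kelch-like median fell to -0.06 with the 60th percentile floor, and that of all members rose to 0.005 with the mean over probe sets. That of cullins with Skp1 fell to -0.13 without _s_at, _x_at and _a_at probe sets. The count of genes at least 2-fold lower was 1 in place of 2 without a floor and with a pseudocount of 10, where Fbxo15 was lost, and 3 at a threshold of 1.5-fold and 0 at 3-fold. The count of higher genes was 2 at 1.5-fold and 0 otherwise. Of 342 values of named genes under alternatives other than spike-in scaling, 5 moved by more than that SD, 3 of them with the mean over probe sets. Many of the 342 could not move. The 25th percentile floor left the named ratios unchanged, and averaging probe sets cannot alter a gene read by 1. The low count is therefore in part by construction. No paired analysis was possible because each genotype has 1 array. Dim genes such as Klhl25, Fbxo42 and Fbxo32, with signals close to the floor, are limited by signal over background.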
